A study of Rattus norvegicus with 12 samples.

Results

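The data described here are the signals of 8 miRNAs in the left ventricle of rats: rno-miR-652-5p, rno-miR-149-3p, rno-miR-292-5p, rno-miR-296-5p, rno-miR-193a-5p, rno-miR-1249, rno-miR-1199-5p and rno-miR-3120. They were 8 of the 758 rat miRNAs on the array. The 8 were chosen by their values: each was measured above background on most arrays, had a lower scaled signal after myocardial infarction (MI) than after sham surgery, and lay outside the miRNA families best known from the heart. Their lower signal in MI against Sham is therefore a property of the choice. Calls of a test in that contrast are given only as counts beside those of all miRNAs, and they support nothing about the members.

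Male Wistar rats of 3 groups were compared, with 4 rats and 4 arrays in each. In the MI group the left anterior descending coronary artery had been ligated and the rats were treated with saline, and the labels call this the chronic heart failure group. In the Sham group the same surgery was done without the ligature, followed by saline. In the YQFM group ligated rats received the Chinese medicine YQFM at 5 mg/kg per day by intraperitoneal injection for 28 days, so the MI and YQFM groups share the ligation. RNA came from left ventricle near the infarct, which holds muscle cells, fibroblasts, vessels and blood cells. In such a sample fewer cells of a type cannot be told apart from less of a miRNA per cell. The age of the rats is not given in the sources used here.

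A miRNA is cut from a hairpin precursor and guides silencing proteins to messenger RNAs, mostly through pairing of bases 2 to 8 at its 5′ end, the seed. A hairpin can yield a miRNA from each arm, named 5p and 3p, and the arm that is less abundant is often the less studied one. Several miRNAs lie in introns or clusters and share a primary transcript with a host gene or with each other. In the failing heart the best known miRNAs are those of muscle cells, such as miR-1 and miR-133, and those of fibroblasts, such as miR-21 and miR-214.

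The mature sequences are shown because the seed, the base composition and the runs of 1 base bear on the results that follow. They are from RefSeq (GRCr8), written 5′ to 3′ with the seed in capitals, and all 8 were matched by name.
rno-miR-652-5p: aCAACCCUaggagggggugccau
rno-miR-149-3p: gGGACGGGggcggugcug
rno-miR-292-5p: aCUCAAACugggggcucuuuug
rno-miR-296-5p: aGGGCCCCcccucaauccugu
rno-miR-193a-5p: uGGGUCUUugcgggcaagauga
rno-miR-1249: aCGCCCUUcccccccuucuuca
rno-miR-1199-5p: uCUGAGUCcgggucgcgcgg
rno-miR-3120: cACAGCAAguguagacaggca

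The 8 miRNAs had 8 different seeds, and they lay on 8 chromosomes. Of the loci, 7 overlapped the annotated span of another gene. rno-miR-652-5p (chrX:111140088-111140110, plus strand) lies within Tmem164, which encodes a transmembrane protein. rno-miR-149-3p (chr9:100861860-100861877, plus strand) lies within Gpc1, the gene of the heparan sulfate proteoglycan glypican 1. rno-miR-292-5p (chr1:74879518-74879539, minus strand) overlaps Nlrp12 and belongs to the miR-290 to miR-295 cluster, known from embryonic stem cells. rno-miR-296-5p (chr3:183470114-183470134, minus strand) overlapped no other annotated gene and has been studied in vessel cells. rno-miR-193a-5p (chr10:65170336-65170357, plus strand) overlaps Faul2 and a second miRNA gene, Mir193a, on the opposite strand. rno-miR-1249 (chr7:117955547-117955568, minus strand) lies within Kiaa0930. rno-miR-1199-5p (chr19:41045357-41045376, plus strand) lies within Misp3. rno-miR-3120 (chr13:77121672-77121692, minus strand) lies within Dnm3, the gene of dynamin 3, and all 21 of its bases fall inside the hairpin of Mir214, which is read from the opposite strand.

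Of the 8 seeds, only that of rno-miR-292-5p was found in other miRNAs of the array. It was shared by rno-miR-290 and rno-miR-293-5p. The first of them was detected on all 12 arrays and the other on none.
rno-miR-290: uCUCAAACuaugggggca

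Each miRNA was read by 2 or 4 probes, and its signal is the mean of them, scaled to an equal 75th percentile on every array, taken over the 201 miRNAs detected throughout. The scaled signal is a linear fluorescence intensity without a physical unit. It can be compared between arrays for 1 miRNA but not between miRNAs. Of 758 miRNAs, 263 were detected on at least 2 arrays of a group and were tested, and all 8 members were among them. Of the members, 7 were above background on 12 arrays. The exception, rno-miR-3120, was above background on 10 arrays, with 2 of 4 in the MI group.

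The arrays lay on 3 slides, and the groups were not spread over them. MI replicates 1 to 3 were on slide 1, MI replicate 4 and YQFM replicate 1 on slide 2, and the 4 Sham arrays with YQFM replicates 2 to 4 on slide 3. No slide held both MI and Sham, so slide and group cannot be told apart within a slide for that contrast. The labels conflict on 2 arrays. The source name of MI replicate 4 points to Sham and that of Sham replicate 4 to YQFM, unlike their titles, descriptions and group entries. The last 3 were followed here. The number of detected miRNAs was 211 to 268 per array. Of the 5 heart muscle miRNAs checked, miR-1-3p, miR-133a-3p, miR-133b-3p and miR-499-5p were detected on all arrays, while miR-208a-3p was detected on 1. The hepatocyte miRNA miR-122-5p and the neuronal miR-124-3p and miR-9a-5p were detected on none.

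Over all members, the scaled signal in MI was 24.4 to 44.0% below Sham, and the YQFM means lay between MI and Sham for each of the 8. The MI and Sham arrays served to choose the members, so a YQFM mean between them was favoured by the choice. The same holds for each share of the distance between MI and Sham given below. Among the 263 tested miRNAs, 18 (6.84%) were called lower in MI by limma at an adjusted p under 0.05, and the 8 members were among these 18. This count restates the choice of the members. The median log2 ratio of MI to Sham was -0.61 for the members and -0.04 for all tested miRNAs. In 6 of the 8 every MI array was below every Sham array, against 31 of 263 tested miRNAs (11.8%). The number of calls in this contrast depended on single arrays. Of all 263 miRNAs and of the members, limma called 4 and 2 without MI replicate 2 or without MI replicate 3, and 7 and 3 without Sham replicate 1 or without Sham replicate 4. It called 11 and 4 without MI replicate 1, 12 and 4 without Sham replicate 2, 18 and 5 without Sham replicate 3, and 14 and 5 without YQFM replicate 3 or 4. The counts were 62 and 8 without MI replicate 4 and 29 and 8 without YQFM replicate 1. With normexp background correction or no scaling, limma called 0 of 263, and with quantile normalization 2 of 263, none of them a member. The plot of signals by array shows these values with the slide of each array.

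**Figure D1:**
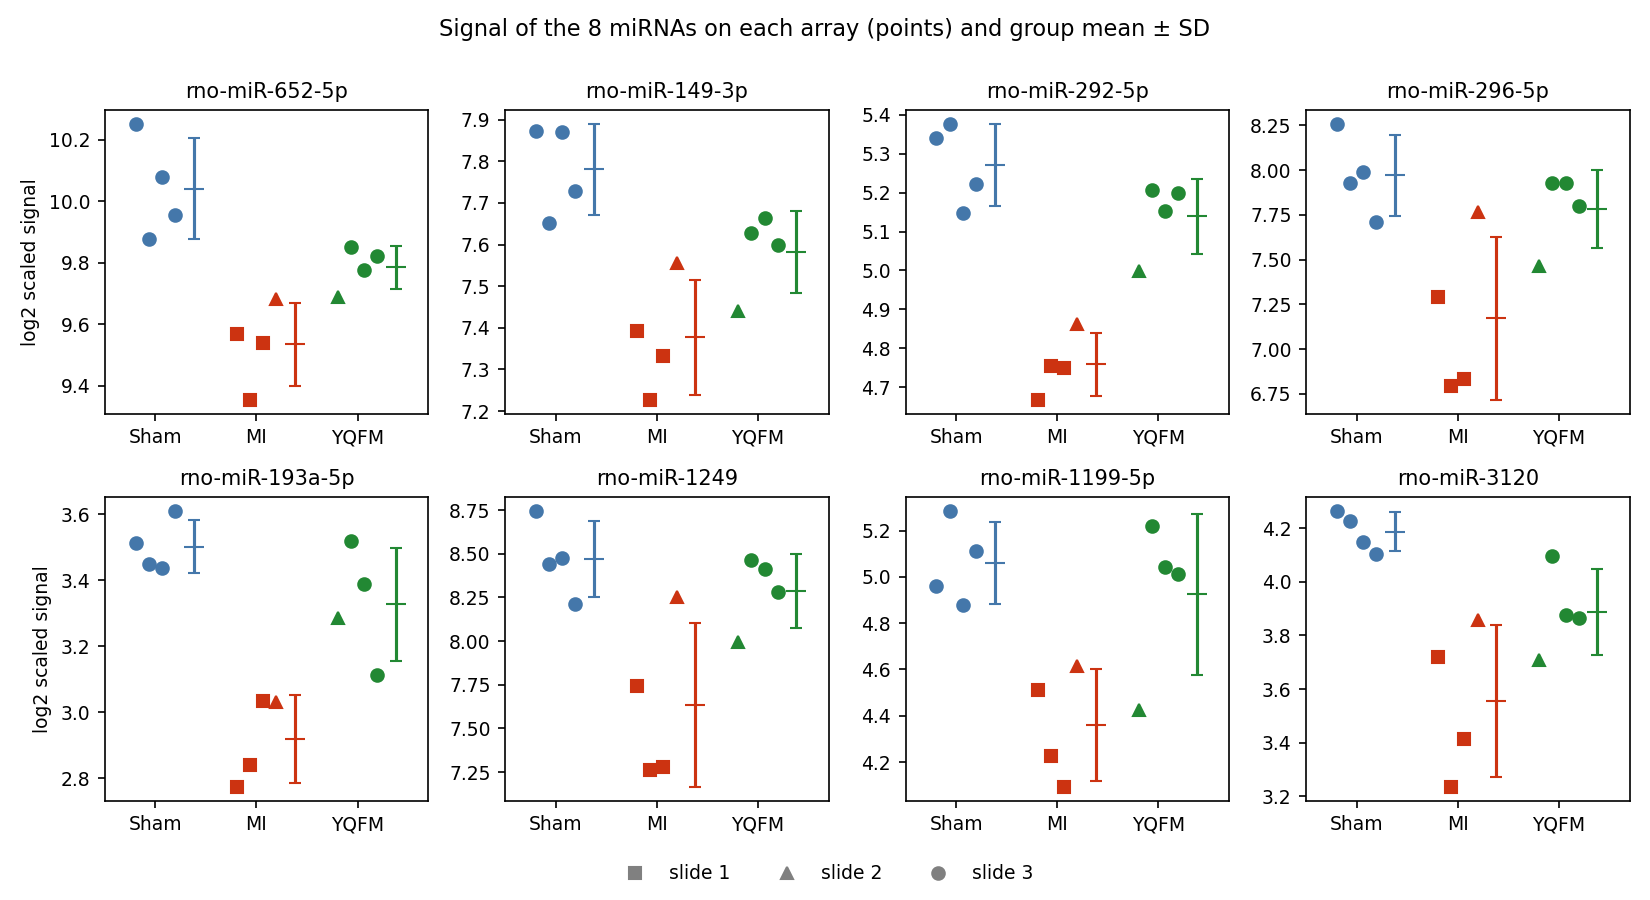
Log2 scaled signal (vertical axis) of each of the 8 miRNAs on the 12 arrays, by group. Points are arrays, with squares for slide 1, triangles for slide 2 and circles for slide 3, and bars give the group mean ± SD (n = 4). MI replicate 4, the red triangle, was the highest MI array for 7 of the 8 miRNAs.

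rno-miR-652-5p, from the less studied arm of its hairpin, had scaled signals of 1220, 939.7, 1082 and 993.7 on the Sham arrays, 759.2, 654.3, 743.1 and 820.8 on the MI arrays, and 826.1, 924.7, 877.2 and 905.1 on the YQFM arrays. The 3 groups did not overlap: all YQFM arrays were above all MI arrays and below all Sham arrays. The log2 ratio was -0.51 (SE 0.102) for MI to Sham, and the log2 mean of YQFM lay 0.25 above MI and 0.26 below Sham, which is 49.5% of the distance between MI and Sham.

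rno-miR-149-3p gave 234.4, 201.0, 233.9 and 212.2 in Sham, 168.1, 149.8, 161.2 and 188.1 in MI, and 173.7, 197.8, 202.7 and 193.8 in YQFM. All MI arrays were below all Sham arrays, and YQFM replicate 1 fell among the MI arrays. Its log2 ratio of MI to Sham, -0.40 (SE 0.0952), was the smallest of the 8, and YQFM covered 50.9% of the distance.

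rno-miR-292-5p had signals of 40.53, 41.51, 35.43 and 37.34 in Sham, 25.41, 26.97, 26.91 and 29.09 in MI, and 31.99, 36.92, 35.6 and 36.72 in YQFM. The MI arrays stood apart from both other groups, which overlapped with each other. The spread within the MI group was narrow, with a coefficient of variation of 5.58%. The log2 ratio of MI to Sham, -0.51, had an SE of 0.0849. YQFM was 0.38 above MI on the log2 scale and covered 74.3% of the distance.

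rno-miR-193a-5p, studied in other tissues as a miRNA that restrains growth, had signals close to the floor. Its signals were 11.41, 10.91, 10.82 and 12.21 in Sham, 6.836, 7.159, 8.18 and 8.17 in MI, and 9.757, 11.46, 10.48 and 8.644 in YQFM, where the floor was 5.198. MI did not overlap with either of the other groups. In log2 terms MI was at -0.58 (SE 0.104) relative to Sham, and YQFM was 0.41 above MI.

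rno-miR-1199-5p read 31.17, 39.01, 29.44 and 34.56 in Sham, 22.78, 18.72, 17.06 and 24.49 in MI, and 21.45, 37.32, 32.99 and 32.3 in YQFM. Sham and MI did not overlap, and YQFM replicate 1 lay among the MI arrays while the other 3 YQFM arrays lay among the Sham arrays. The YQFM group had the widest spread of the members in YQFM, with a coefficient of variation of 21.8%. MI lay at -0.70 (SE 0.18) relative to Sham on the log2 scale, and 80.8% of the distance was covered.

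rno-miR-3120 gave 19.23, 18.71, 17.76 and 17.2 in Sham, 13.16, 9.413, 10.66 and 14.51 in MI, and 13.06, 17.11, 14.7 and 14.57 in YQFM. All Sham arrays were above all other arrays, and YQFM replicate 1 was below 2 of the MI arrays. The 2 MI arrays of lowest signal, replicates 2 and 3, were those on which it was not above background. Relative to Sham, the log2 ratio in MI was -0.63 (SE 0.137), and YQFM covered 52.4% of the distance.

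rno-miR-296-5p and rno-miR-1249 had the MI to Sham ratios farthest from 0 of the 8 and also the widest spread within MI and within Sham. The signals of rno-miR-296-5p were 306.4, 244.0, 254.5 and 209.3 in Sham, 156.9, 111.0, 114.1 and 217.5 in MI, and 176.9, 243.5, 244.0 and 223.1 in YQFM. MI replicate 4 was above Sham replicate 4, so the groups overlapped, and the log2 ratio was -0.80 (SE 0.213). For rno-miR-1249 they were 429.3, 348.3, 356.6 and 296.9 in Sham, 213.8, 153.4, 155.5 and 304.8 in MI, and 254.8, 353.0, 340.3 and 311.0 in YQFM. The same MI array was again above the same Sham array, and the log2 ratio was -0.84 (SE 0.214). The coefficient of variation within MI was 33.2% for the first and 34.3% for the second. YQFM covered 76.1% and 78.1% of the distance, respectively.

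These 2 miRNAs moved together almost without deviation. Over the 12 arrays their log2 signals had a Pearson's r of 0.999, and within the groups, after each group's mean was taken off, r was 0.998. The log2 difference of rno-miR-296-5p and rno-miR-1249 ranged from -0.54 to -0.45, with an SD of 0.0282. Of the 20100 pairs among the 201 miRNAs detected on all arrays, this was the pair with the smallest SD of the log2 difference, and the median pair had an SD of 0.357. They are encoded on different chromosomes and have different seeds. These correlations share arrays, slides, scaling and background, and they are given as descriptions over 12 arrays.

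The mature sequences of the pair both contain an unbroken run of 7 C, and the array's probes, which are complementary to the 3′ part of the miRNA, contain the matching run of G. The probes are shown with the run in capitals, 5′ to 3′ as DNA.
rno-miR-296-5p probe 1: acaggattgaGGGGGGG
rno-miR-296-5p probe 2: acaggattgaGGGGGG
rno-miR-1249 probe 1: tgaagaaGGGGGGG
rno-miR-1249 probe 2: tgaagaaGGGGGGGa

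Of the 1806 probes on the array, 4 (0.221%) had a run of 6 or more of 1 base among G and C, and these 4 were the probes shown. No other miRNA on the array had such a probe. Runs of at least 5 were found in probes of 4 of the 8 members, which were these 2, rno-miR-652-5p and rno-miR-292-5p, and in 12 of the 263 tested miRNAs (4.56%). Whether the runs have a part in the shared pattern was not tested.

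**Figure D2:**
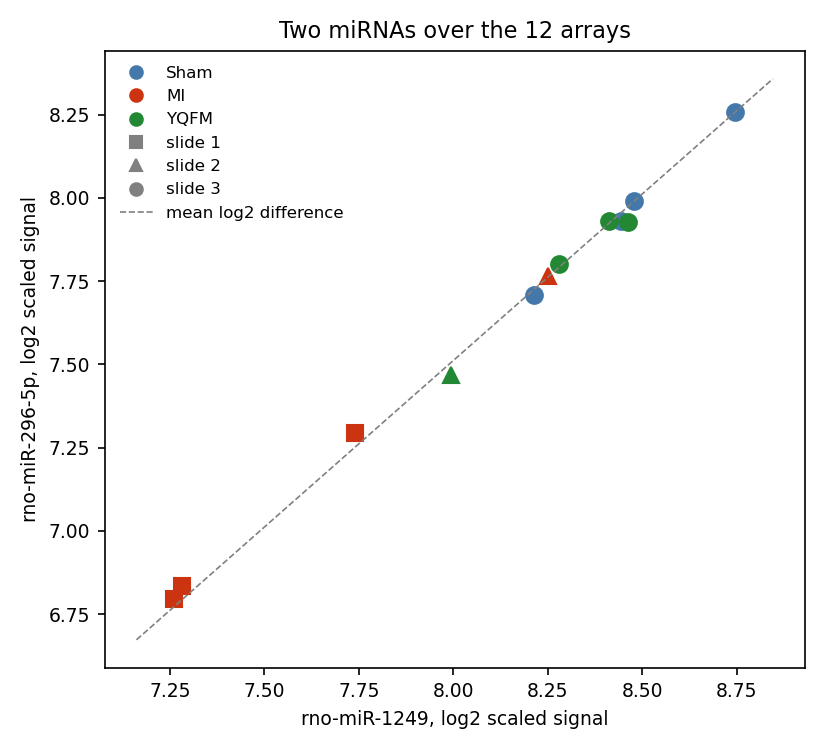
Log2 scaled signal of rno-miR-296-5p (vertical axis) against rno-miR-1249 (horizontal axis) on the 12 arrays, with colours for the groups and symbols for the slides. The dashed line marks the mean log2 difference, and every array lies close to it (SD 0.0282).

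Among all 28 pairs of members, r ranged from 0.72 to 0.999 with a median of 0.859. Since all 8 were chosen for a lower signal in MI, part of this is fixed by the choice. Within groups, where the group means do not enter, the median was 0.571 and the range 0.159 to 0.998, against a median of 0.159 over the 20100 pairs. The MI arrays lay on slides 1 and 2 and the YQFM arrays on slides 2 and 3, so differences between slides can enter these values. By the SD of the log2 difference, rno-miR-652-5p and rno-miR-149-3p were the second closest pair of members (0.0711), with r of 0.878 within groups. By r within groups, rno-miR-1249 and rno-miR-3120 (0.904) and rno-miR-296-5p and rno-miR-3120 (0.895) stood above them. rno-miR-193a-5p followed the others least within groups, with r of 0.159 to 0.274.

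The next question was whether the signals of treated rats differed from MI. The MI arrays of this comparison were those used to choose the members, so a higher mean in YQFM than in MI was favoured by the choice, and the values are descriptions. In the fit of YQFM against MI, limma called 0 of 263 miRNAs (0.0%) at an adjusted p under 0.05, with 50 at an unadjusted p under 0.05. Of the members 0 were called, and 7 of 8 had an unadjusted p under 0.05. Their adjusted p in limma ran from 0.0786 for rno-miR-292-5p and rno-miR-193a-5p to 0.258 for rno-miR-149-3p. The median log2 ratio of YQFM to MI was 0.39 for the members and -0.01 for all tested miRNAs, and 8 of 8 members and 128 of 263 tested miRNAs were above 0. In 3 members every YQFM array was above every MI array, namely rno-miR-652-5p, rno-miR-292-5p and rno-miR-193a-5p, against 11 of 263 tested miRNAs (4.18%). Without MI replicate 4, limma called 4 of the 8 members and 28 of 263 miRNAs in YQFM against MI. Without YQFM replicate 1 it called 3 members and 23 miRNAs. In the first case YQFM was above MI without overlap in 6 members and 39 of 263 miRNAs, and in the second in 8 members and 33 of 263.

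Against Sham, the YQFM means of all 8 members were lower, by 8.74 to 18.8%. The Sham arrays were among those used to choose the members, so a lower mean in YQFM was favoured by the choice. Of all 263 tested miRNAs, 77 had a log2 ratio of YQFM to Sham above 0, against 0 of the 8 members. limma called 0 of 263 miRNAs (0.0%) in YQFM against Sham, with 15 at an unadjusted p under 0.05, and the adjusted p of the members was 0.664 to 0.852. The median log2 ratio was -0.19 for the members and -0.11 for all tested miRNAs. In rno-miR-652-5p and rno-miR-3120 all YQFM arrays were below all Sham arrays, against 16 of 263 tested miRNAs (6.08%). A p that misses the threshold does not show that treated and Sham rats had equal signals.

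**Figure D3:**
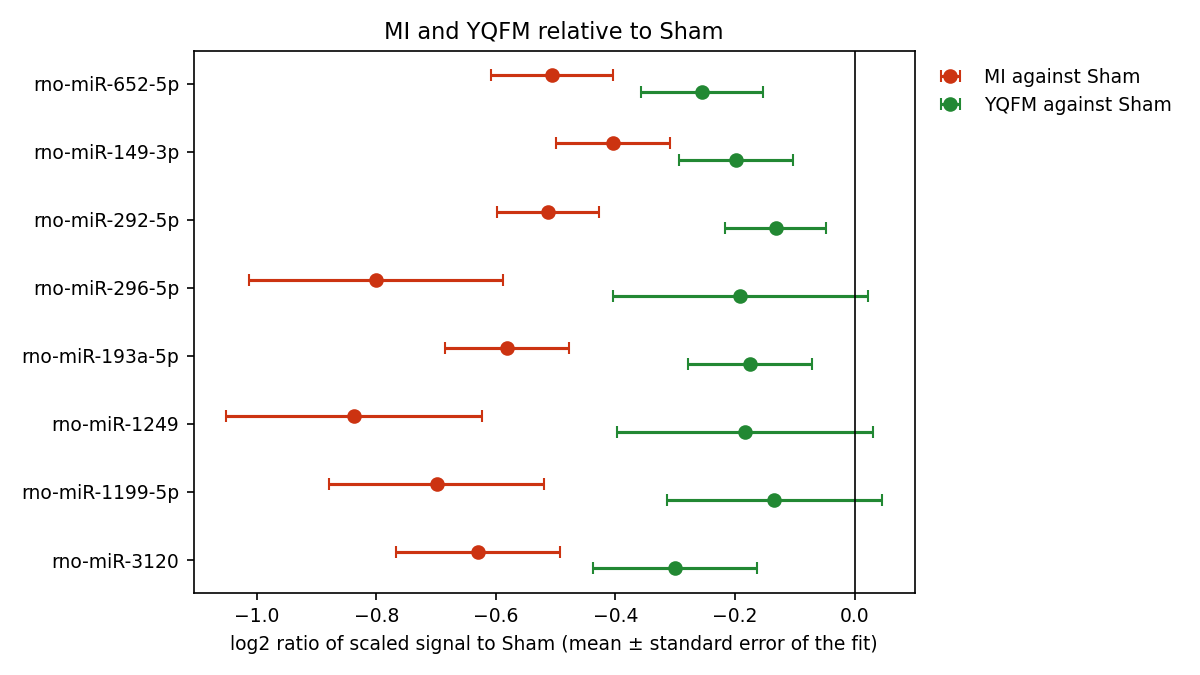
Log2 ratio of the mean signal in MI (red) and in YQFM (green) to Sham for each of the 8 miRNAs, with the standard error of the limma fit as bars. The YQFM points lie between the MI points and 0 for all 8, at -0.30 to -0.13. This position was favoured by the choice of the members on the MI and Sham arrays.

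The values were also read by slide. MI replicate 4, alone of its group on slide 2, was the highest MI array for 7 of 8 members, compared with 92 of the 263 tested miRNAs. Its source name points to Sham, and the slide and the conflicting label cannot be told apart for this array. YQFM replicate 1, on the same slide, was the lowest YQFM array for 7 of 8, compared with 72 of the 263. The members correlated within groups (median r 0.571), so these counts do not rest on 8 independent observations. For rno-miR-296-5p, MI replicate 4 was 0.79 above the mean of the other MI arrays on the log2 scale, and YQFM replicate 1 was 0.42 below the other YQFM arrays. For rno-miR-1249 these values were 0.82 and 0.39. Within slide 2, which holds 1 array of each group, the YQFM array was below the MI array for 5 of the 8 members and for 125 of the 263 tested miRNAs, and above it for 134 of the 263, with the members' log2 differences from -0.30 to 0.26. Within slide 3, the mean of 3 YQFM arrays was below that of the 4 Sham arrays for 7 of 8, with differences from -0.24 to 0.03. rno-miR-1199-5p was the exception. Over the same arrays the median log2 ratio of YQFM to Sham was -0.12 for the members and -0.13 for all tested miRNAs, so the members were not lower than the rest.

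With the slide as a fixed block, the MI to Sham ratio turned positive for rno-miR-296-5p (0.21), rno-miR-1249 (0.17) and rno-miR-1199-5p (0.22), and was -0.42 to -0.04 for the other 5. In that fit MI and Sham are linked only through the 2 arrays of slide 2 and the YQFM arrays of slide 3. With the slide as a random block the ratios were -0.52 to -0.27 for all 8, and limma called 0 of 263 miRNAs in either fit. Without the slide 2 arrays the ratios were -1.04 to -0.46, and limma called 69 of 263 miRNAs, the 8 members among them. Readings of the array's own added controls also differed between the slides. The labelling control, in the unit the scanner software gives, read 3.258 to 3.269 on slide 1, 3.423 to 3.517 on slide 2 and 3.326 to 3.48 on slide 3. The part of the slide in the members' values was not tested.

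The same picture was examined probe by probe. The probes of 1 miRNA differ in length by 1 base or more and are complementary to the same mature sequence. Whether they also bound other molecules was not tested. The 8 miRNAs had 20 probes, of which 13 were above background on all 12 arrays and 3 on none. All 13 had a lower mean in MI than in Sham and a higher mean in YQFM than in MI. Both directions were favoured by the choice of the miRNAs, and probes of 1 miRNA share their target and are not independent measurements.

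**Figure D4:**
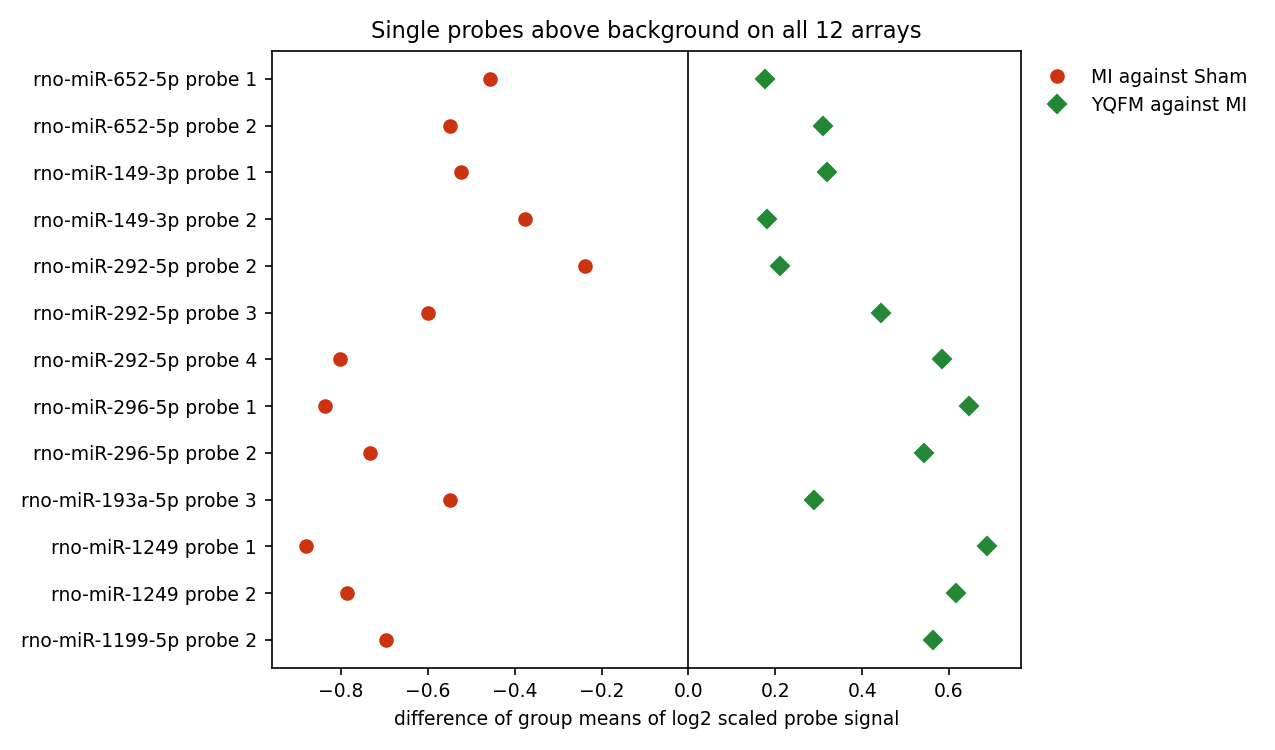
Difference of group means of the log2 scaled signal for the 13 probes above background on all 12 arrays, with red circles for MI against Sham and green diamonds for YQFM against MI. All MI against Sham values are below 0 and all YQFM against MI values above 0, and the 3 probes of rno-miR-292-5p differ most among themselves.

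The probes of rno-miR-292-5p differed among themselves. Probe 1, of 12 bases, was above background on no array. The others, of 13, 14 and 15 bases, gave log2 differences between MI and Sham of -0.24, -0.60 and -0.80, so the difference was larger in the longer probe. The 13-base probe overlapped between MI and Sham, with 36.31 to 49.24 in MI and 42.86 to 59.29 in Sham. The 15-base probe did not, with 22.29 to 37.89 in MI and 43.07 to 56.38 in Sham.

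For rno-miR-193a-5p only 1 of 4 probes, probe 3 of 13 bases, was above background on all arrays, and its log2 difference between MI and Sham was -0.55. The 11-base and 12-base probes were above background on no array, so the mean over 4 probes is well below the signal of probe 3, which was 32.01 to 37.63 in Sham and 21.13 to 29.32 in MI. For rno-miR-1199-5p the 11-base probe was detected on 12 arrays and the 10-base probe on 4. Both probes of rno-miR-3120, which were detected on 9 and 10 arrays, are dim and do not reach the full set. In the other 4 miRNAs both probes were above background on all arrays. Their log2 differences between MI and Sham were -0.46 and -0.55 for rno-miR-652-5p, -0.52 and -0.38 for rno-miR-149-3p, -0.84 and -0.73 for rno-miR-296-5p, and -0.88 and -0.79 for rno-miR-1249.

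Base composition was the next measure. The share of G and C in the probes of a member was 70.3% for rno-miR-652-5p, 82.6% for rno-miR-149-3p, 59.3% for rno-miR-292-5p and 63.6% for rno-miR-296-5p. It was 57.9% for rno-miR-193a-5p, 62.1% for rno-miR-1249, 90.5% for rno-miR-1199-5p and 51.5% for rno-miR-3120. The median was 62.9% for the members and 54.8% for the 263 tested miRNAs, whose quartiles were 45.9% and 64.3%. rno-miR-1199-5p and rno-miR-149-3p had a higher share than 99.6% and 98.1% of the tested miRNAs, while rno-miR-3120 had a higher share than 36.5% of them. The probes of the members were also shorter, with a median length of 13.5 bases against 15.5.

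Across the 263 miRNAs the MI to Sham ratio was on the whole lower where the G and C share of the probes was higher (Pearson's r -0.304, Spearman's rho -0.309, across miRNAs that share the same arrays and are not independent). With the 8 members left out, r was -0.282. The median log2 ratio of MI to Sham was 0.02 for the 25 miRNAs with a share under 40%, 0.12 for the 66 at 40 to 50%, -0.12 for the 74 at 50 to 60%, -0.13 for the 64 at 60 to 70%, and -0.24 for the 34 at 70% or more. The ratio of YQFM to MI had a weaker relation to the share, with r of 0.14. On each array the log2 signal fell with the G and C share, with slopes per 10 percentage points of -0.282 to -0.215 on the Sham arrays, -0.389 to -0.264 on the MI arrays and -0.399 to -0.249 on the YQFM arrays. By slide they were -0.389 to -0.264 on slide 1, -0.399 to -0.344 on slide 2 and -0.29 to -0.215 on slide 3, and YQFM replicate 1 had the steepest slope of all 12 arrays. With this trend taken off each array, the MI to Sham ratios of the 8 members were -0.79 to -0.17. Values below 0 were favoured by the choice of the members, here as well. limma called 18 of 263 miRNAs in that fit, 4 of them members. The ratio became -0.38 for rno-miR-652-5p, -0.17 for rno-miR-149-3p, -0.40 for rno-miR-1199-5p and -0.74 for rno-miR-296-5p, the 4 that were not called. The part of base composition in the members' values was not tested.

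**Figure D5:**
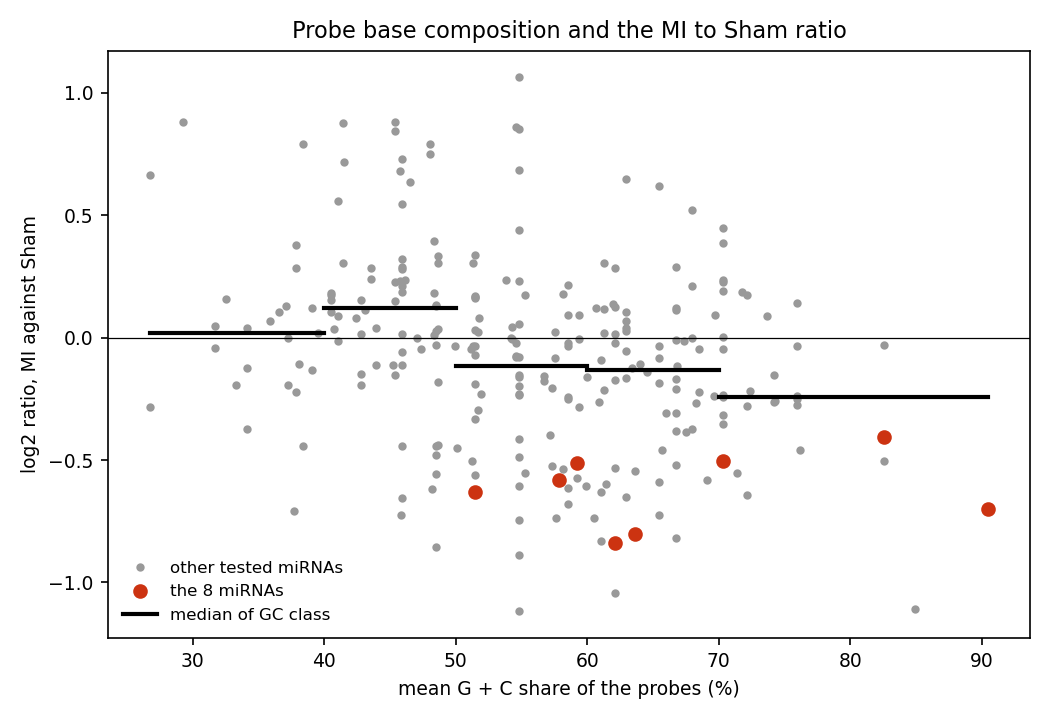
Log2 ratio of MI to Sham (vertical axis) against the mean G and C share of a miRNA's probes in percent (horizontal axis) for the 263 tested miRNAs, with the 8 members in red. Black lines mark the median ratio in each class of G and C share. They run from 0.02 under 40% and 0.12 at 40 to 50% to -0.24 at 70% or more. The 8 red points lie below the line of their class, a position favoured by the choice of the members.

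The other arm of each hairpin and the neighbours in clusters were read as well, since they come from the same or a nearby transcript. Of 26 such miRNAs on the array, 17 could be tested and 9 were detected on no array. limma called 0 of the 17 in each of the 3 contrasts, and the lowest adjusted p in limma was 0.052 in the MI to Sham contrast and 0.079 in that of YQFM to MI. Of the 17, 12 had a lower mean in MI than in Sham, with a median log2 ratio of -0.30. Over all 263 tested miRNAs the mean was higher in MI for 110, and the median log2 ratio was -0.04. Of these 263, limma called 19 in MI against Sham and 0 in each contrast with YQFM. Whether the 17 differed from the other tested miRNAs was not tested.

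Among the opposite arms, rno-miR-652-3p had scaled signals of 40.83 to 52.93 in Sham and 42.54 to 87.5 in MI, a log2 ratio of 0.30 where that of rno-miR-652-5p was -0.51. rno-miR-149-5p lay at 81.86 to 103.9 in Sham and 67.17 to 102.2 in MI, a log2 ratio of -0.16. rno-miR-1199-3p had a ratio of -0.25, with 28.43 to 39.32 in Sham, 25.78 to 28.06 in MI and 22.36 to 29.49 in YQFM. Its MI arrays were below its Sham arrays without overlap, as in 31 of 263 tested miRNAs (11.8%). Its YQFM arrays overlapped with both, and its log2 ratio of YQFM to MI was -0.02. rno-miR-193a-3p was dim, with 6.309 to 14.39 in Sham and 2.426 to 7.114 in MI, and its log2 ratio was -0.56 with values set to the floor. The 3p arms of miR-292 and miR-296 were detected on no array. The difference between the arms was not tested.

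In the miR-290 to miR-295 cluster, rno-miR-290, rno-miR-291a-5p, rno-miR-294 and rno-miR-295-5p were detected on all 12 arrays, as rno-miR-292-5p was. rno-miR-291a-3p, rno-miR-291b, rno-miR-292-3p, rno-miR-293-3p, rno-miR-293-5p and rno-miR-295-3p were detected on none. rno-miR-290, the seed relative, had 222.5 to 263.3 in Sham, 172.0 to 205.3 in MI and 205.5 to 269.9 in YQFM, and MI did not overlap with either of the other groups. Its log2 ratio was -0.30 for MI to Sham (adjusted p = 0.0861 in limma) and 0.28 for YQFM to MI (adjusted p = 0.188 in limma). rno-miR-294 had the nearest values to the threshold, with a log2 ratio of -0.74 for MI to Sham (adjusted p = 0.052 in limma) and 0.78 for YQFM to MI (adjusted p = 0.079 in limma). rno-miR-291a-5p had log2 ratios of -0.82 and 0.72, and rno-miR-295-5p had -0.24 and 0.06. The hairpin of miR-290 lies 504 bases from that of miR-292.

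The hairpin of miR-298 lies 375 bases from that of miR-296 on the same strand. rno-miR-298-5p was detected on 10 arrays, and its log2 ratio of MI to Sham was -0.53. Near rno-miR-193a-5p, rno-miR-3549 is read from the opposite strand of the same 19 bases, and its log2 ratio was -0.38 (26.12 to 34.54 in Sham, 20.03 to 27.05 in MI). The related miR-193b had ratios of -0.65 for its 3p arm and -0.49 for its 5p arm, and the 5p arm did not overlap between MI (61.6 to 79.77) and Sham (86.38 to 105.7). rno-miR-365-3p and rno-miR-365-5p, partners of miR-193b, had ratios of -0.37 and 0.07.

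The neighbours of rno-miR-3120 had a mean above Sham in MI, although this turned with the slide in the fit. rno-miR-214-3p, which is read from the strand opposite to rno-miR-3120 at the same locus, had 96.52 to 148.5 in Sham and 137.6 to 261.9 in MI, a log2 ratio of 0.62 (adjusted p = 0.292 in limma). rno-miR-199a-3p and rno-miR-199a-5p had log2 ratios of 0.56 and 0.73 (adjusted p = 0.37 and 0.309 in limma). With the slide as a fixed block these 3 ratios were -1.45, -1.26 and -1.01, and as a random block -0.20, -0.18 and -0.01. For rno-miR-3120 itself the ratio was -0.63, and -0.09 and -0.43 in the same 2 fits. The difference between the strands was not tested.

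rno-miR-214-3p and both arms of miR-199a are also in the list of 5 fibroblast miRNAs that was read beside the members. The summed scaled signal of that list was 849.8 to 1115 in Sham, 959.7 to 1641 in MI and 950.3 to 2070 in YQFM, and 4 of its 5 miRNAs had a higher mean in MI than in Sham. Such a sum adds intensities that cannot be compared between miRNAs, so it is weighted to the brightest of a list. The 5 heart muscle miRNAs summed to 10050 to 13410 in Sham, 9414 to 11790 in MI and 9208 to 11480 in YQFM. For the 2 endothelial miRNAs the sums were 562.6 to 733.3 in Sham, 707.0 to 941.4 in MI and 574.9 to 711.7 in YQFM. The sums of the leukocyte list, in which miR-142-3p and miR-142-5p were detected on no array, were 330.6 to 386.1 in Sham and 322.1 to 411.5 in MI. The 3 erythrocyte miRNAs summed to 197.59 to 250.74 in Sham, 161.93 to 214.02 in MI and 165.21 to 198.42 in YQFM, and the 2 smooth muscle miRNAs to 501.9 to 611.4, 381.0 to 603.6 and 430.5 to 551.5. Of the tested miRNAs, 0 of 2 in the erythrocyte list and 0 of 2 in the smooth muscle list had a higher mean in MI than in Sham. The count was 1 of 2 for the endothelial list, 1 of 4 for heart muscle and 1 of 4 for leukocytes, against 110 of all 263. No miRNA of any list was called in MI against Sham by limma, and the part of cell makeup in the members' values was not tested.

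Outside the members, the 5 miRNAs whose pattern was most like the mean standardized profile of the 8 were sought among 194 miRNAs detected on all 12 arrays. They were rno-miR-3573-3p (r = 0.924), rno-miR-6328 (0.918), rno-miR-3541 (0.894), rno-miR-133c (0.891) and rno-miR-294 (0.873), each over 12 arrays. The first 3 had probes with a run of 5 G or C and G and C shares of 70.3%, 82.6% and 66.8%. For rno-miR-133c the longest run was 4 and the share 54.8%, and for rno-miR-294 they were 3 and 57.6%. In MI the first 3 were at -0.51, -0.50 and -0.52 relative to Sham on the log2 scale. rno-miR-133c was at -0.61 and rno-miR-294 at -0.74. The mean standardized profile of the members was highest on Sham replicate 1 (1.22 SD units) and lowest on MI replicate 2 (-1.66). On MI replicate 4 it was -0.26 and on YQFM replicate 1 -0.41, so the 2 arrays of slide 2 lay close together and between the MI arrays of slide 1 and the arrays of slide 3.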

How the data were processed

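The authors deposited the scanner output of 12 single-colour Agilent rat miRNA arrays, made with Feature Extraction 10.7.1.1, in which each spot has a background-subtracted intensity, and a table of processed intensity values per miRNA that is not scaled between arrays. Arrays were placed in groups by their title, description and group entry. Nothing names a normalization; depth does not apply to arrays, and their number limits the precision.

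Control spots and outlier spots were left out. The mean intensity of a probe's spots, and then of a miRNA's probes, was scaled to each array's 75th percentile among 201 miRNAs detected throughout. A probe was detected when over 50% of its spots were well above background. Values under a floor of 5.198 were set to it, and log2 was taken. The 263 miRNAs detected on at least 2 of 4 arrays of a group were fitted over all 12 arrays with limma 3.58.1 in R 4.3.3 (two-sided, Benjamini-Hochberg over all tested, threshold 0.05), a procedure tested on simulated data. The rats are the replicates, and replicate numbers did not pair the arrays.

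The members, gene lists and tests were chosen with earlier results of these data known. The miRNAs named were the members, their opposite arms, cluster partners and seed relatives, and the 5 with the most similar profile. The sequences are those of RefSeq (GRCr8), which named 685 of the 758 miRNAs. Tables were made with Python 3.11.15 and pandas 2.3.3. Alternatives covered background correction, scaling, floor, filter, probes, base composition, slide, replicate block, test and left-out arrays.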

Additional observations from a re-analysis of the deposited data

How the results depend on the processing

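The members were chosen for a lower signal in MI, so the sign of their MI to Sham ratio was favoured by the choice. The fits without a YQFM array, without a filter and on only the 2 groups compared cannot change this ratio. Nor can the replicate block or the methods' t-test. The MI to Sham ratio of the 8 members kept its sign in all but 6 of their values under 29 alternatives each. It was 1.32 for rno-miR-193a-5p and 0.10 for rno-miR-1199-5p with the total gene signal of the scanner software, 0.013 for rno-miR-292-5p with the brightest probe only, and 0.21, 0.17 and 0.22 for rno-miR-296-5p, rno-miR-1249 and rno-miR-1199-5p with the slide as a fixed block. The first of these rests on MI replicate 3, where that software lists a total gene signal of 1689 for rno-miR-193a-5p against 21.66 to 48.93 on the other arrays, while no spot of it there exceeded 30.04. The cause of the other changes was not tested. The size of the ratio changed as well. The members' median was -0.61 in the fit used above, -0.26 with normexp background correction, -0.28 with the total gene signal and -0.30 with the brightest probe. It was -0.65 with the authors' processed values. With normexp the ratios ran from -0.66 for rno-miR-1249 to -0.11 for rno-miR-3120 and -0.09 for rno-miR-193a-5p. In MI against Sham, 19 miRNAs and 8 members were called. The calls were 0 and 0 with normexp background correction, the total gene signal, the authors' processed values, no scaling and either slide block. They were 3 and 0 with the percentile over all miRNAs, 2 and 0 with quantile normalization, 2 and 0 with the brightest probe, and 6 and 2 with the methods' t-test. They were 18 and 4 with the GC correction and 14 and 5 in the fit on only the 2 groups compared. The filter-free fit, which adds undetected miRNAs at the floor, called 509 miRNAs, and 58 were called without the 2 arrays of conflicting labels. Leaving out single arrays gave 4 to 62 miRNAs and 2 to 8 members, with 62 miRNAs without MI replicate 4 and 4 without MI replicate 2 or 3. The 12 same-numbered pairs of arrays correlated at -0.636 to 0.323, and 4 of 12 arrays correlated best with their own number, so the numbers do not pair the rats. With the replicate block 10 miRNAs and 3 members were called in MI against Sham, and 0 in both other contrasts.

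For YQFM against MI, 2 miRNAs were called with quantile normalization, 1 with the brightest probe, 479 (6 members) without a filter, and 28 (4 members) without the 2 arrays of conflicting labels. Leaving out single arrays gave 0 to 28 miRNAs and 0 to 4 members. The ratio of YQFM to MI was below 0 for 5 of 8 members with the slide as a fixed block, with a median of -0.13. It was below 0 for 2 of 8 with the total gene signal, and above 0 for all 8 under the other alternatives. Leaving out slide 2, an alternative chosen after seeing the data, gave 69 miRNAs for MI against Sham and 55 (7 members) for YQFM against MI. In YQFM against Sham 0 were called under all alternatives. Among opposite arms and partners, 109 of 1479 values changed sign and 45 were called. The other scalings moved the median of all tested miRNAs by up to 0.21 on the log2 scale, in YQFM against MI with the authors' processed values, where it was 0.20 and that of the members 0.59. In YQFM against Sham 2 of 8 members were above 0 with those values, with no scaling and with the total gene signal. With the authors' processed values, which are not scaled, all 8 members overlapped between MI and Sham. Signal over background limits rno-miR-193a-5p and rno-miR-3120 most.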
